A study of Mus musculus with 12 samples.

Results

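Banp (gene ID 53325) encodes a nuclear matrix-associated protein with a BEN domain, and it is 1 of 16942 genes measured in the small intestine of ICR mice. It was chosen by its own levels in these libraries, where it had the smallest p of the genes tested between intestine given busulfan and intestine given neither agent. Its level contrasts are therefore given as a description, with no test. The genes whose levels followed it were selected on the same values and are described in the same way.

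RNA-seq libraries of total RNA came from 4 groups of 3, made of mice with and without busulfan, each at an AOS value of 0 or 10. Busulfan is a DNA-alkylating drug used to deplete blood-forming and germ cells. The libraries without busulfan form the groups AOS0 and AOS10, named for their AOS value. Those with busulfan form B+A0 at the lower AOS value and B+A10 at the higher one. The B in the group names was read as busulfan from the design text of the series, and the sources used here do not give what AOS stands for, its unit, the age of the mice or the times of treatment. All mice were of the outbred ICR strain, and nothing in the labels says which libraries came from separate animals.

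BANP, also known as SMAR1 and as BTG3-associated nuclear protein, was first studied as a protein that binds matrix attachment regions, the stretches of DNA that anchor chromatin loops. It is known to interact with p53 and to recruit histone deacetylase complexes to promoters. It is also known to bind an unmethylated palindromic element in CpG island promoters, many of them of genes that every cell uses, and to activate them.

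In the RefSeq annotation of GRCm38.p6, the assembly behind the authors' mm10 build, Banp covers chr8:121947972-122029260, a span of 81289 bases. GENCODE release M21 lists 16 Banp transcripts of 445 to 5444 bases, of which 8 are coding, 2 are targets of nonsense-mediated decay and 6 are of other kinds. Gm27011, Gm17709 and Mir7237 lie within its GENCODE or RefSeq span, and the annotated read-through gene Gm20388 runs across it on the same strand. None of these 4 genes is among the genes measured here, so they were not analysed. Whether the counting used strand is not stated in the sources used here, and reads of overlapping genes cannot be told apart from those of Banp.

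The sequence element that BANP is known to bind reads TCTCGCGAGA, and it is its own reverse complement. It was searched on both strands of 32851 RefSeq promoter windows (GRCm38.p6, 250 bases before to 50 after each start), and 153 windows (0.466%) held it. The 8-letter core CTCGCGAG within it was in 302 windows (0.919%). Of the genes with the full element, 114 were expressed well enough to be tested, out of 9897 tested genes with a window (1.15%). A match is a match of letters and not a measured binding site. Stretches from 5 of these promoters are shown because the results below name their genes. Nol9 was the gene with the element that passed the test, and Ncapg is a condensin subunit reported to answer to BANP. Among those with an upstream copy, Supt5, Dido1 and Prdx1 correlated most closely with Banp over the 12 libraries, in either direction. Supt5, Dido1 and Prdx1 were picked after their values were seen. The element is in capitals, read 5′ to 3′ on the strand of the gene.
Nol9: ggtgacgcggTCTCGCGAGAtcgtcccgcc
Ncapg: ccggcggaagTCTCGCGAGAtctcatcctc
Supt5: acgcgccagtTCTCGCGAGAgagcgctcag
Dido1: ctcagacaccTCTCGCGAGAtcgtaagatt
Prdx1: cccgtgagaaTCTCGCGAGAactttgtagg

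The Nol9 stretch is at chr4:152039305-152039334 on the plus strand, and the Ncapg stretch is at chr5:45669853-45669882 on the plus strand. The Supt5 stretch is at chr7:28338754-28338783 on the minus strand, the Dido1 stretch at chr2:180710152-180710181 on the minus strand and the Prdx1 stretch at chr4:116685539-116685568 on the plus strand. In the 123 windows of the tested genes, the element lay upstream of or at the start in 109, and 86 had it within 100 bases before the start. The median position was 48 bases before the start.

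Library totals ran from 16014123 to 16818245 counts in the 6 busulfan libraries and from 13560232 to 16329843 in the 6 without. The libraries differed from their own group's replicates by more than sampling noise in every pair (chi-square per degree of freedom 8.28 to 35.4). Markers of the epithelium were abundant: the summed FPKM of 8 enterocyte markers was 4254.14 to 10018.13 over all groups. The 6 smooth muscle markers summed to 0.01 to 1.64 FPKM, near 0 in tissue labelled as intestine.

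Banp stepped up from group to group. In AOS0 the 3 libraries held 196, 188 and 132 Banp counts, which is 12.7, 12.3 and 9.76 CPM, the count scaled to library depth with TMM factors. The AOS10 libraries held 373, 350 and 338 counts, or 22.9, 22.7 and 22.6 CPM. All AOS10 libraries lay above all AOS0 libraries, with a gap of 9.88 CPM between the nearest of them.

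The B+A0 libraries held 555, 680 and 740 counts, or 34.8, 40.5 and 44.9 CPM. The B+A10 libraries held 1004, 602 and 789 counts, or 60.9, 37.6 and 48.4 CPM. Every busulfan library was above every library without busulfan, while the ranges of B+A0 and B+A10 overlapped. The group means were 11.6 ± 1.60 CPM in AOS0, 22.7 ± 0.170 in AOS10, 40.1 ± 5.04 in B+A0 and 49.0 ± 11.6 in B+A10 (SD, n = 3 each).

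Per length, on the deposited FPKM scale, the order was the same. Banp stood at 4.98, 4.84 and 3.35 FPKM in AOS0 and at 9.44, 8.79 and 7.67 FPKM in AOS10. It stood at 13.35, 15.55 and 16.62 FPKM in B+A0 and at 24.2, 14.09 and 17.67 FPKM in B+A10. Among all genes of a library, this placed Banp at the 46.9th to 51.2nd percentile in AOS0, the 58.9th to 62.3rd in AOS10, the 68.5th to 72.1st in B+A0 and the 69.6th to 78.3rd in B+A10. Banp was in the middle of the expression range without either agent and stood near the upper quartile in the busulfan libraries.

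**Figure D1:**
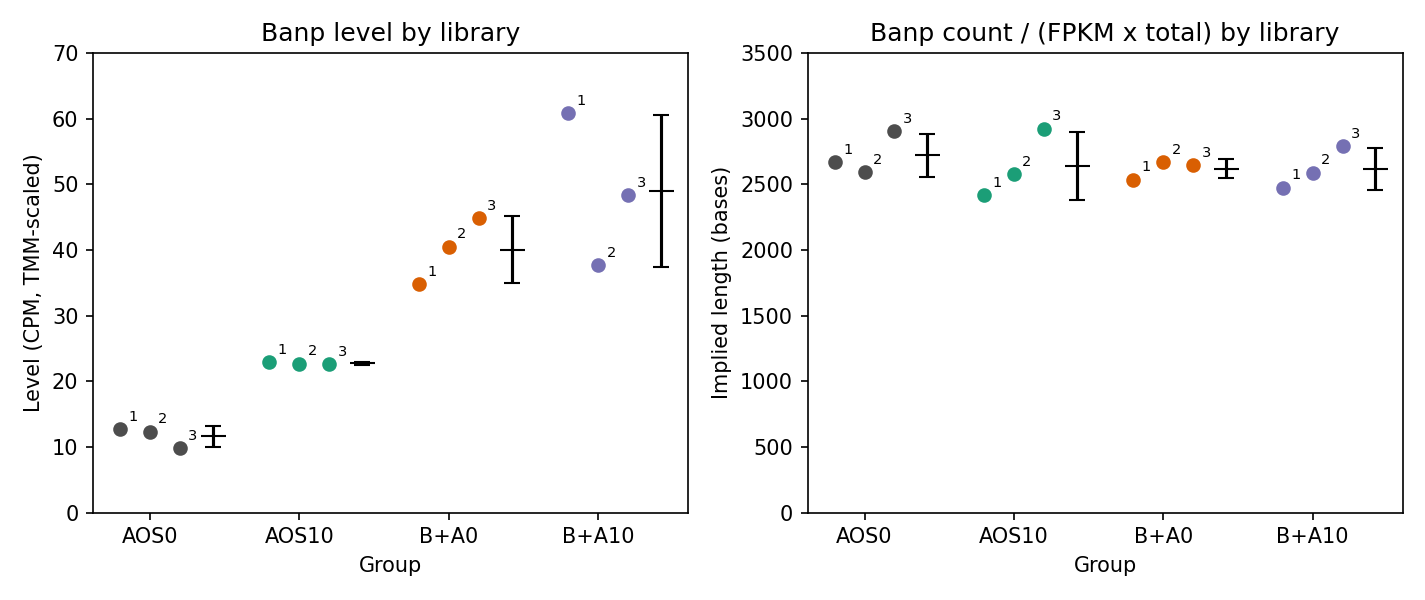
Left, Banp level in TMM-scaled CPM for each of the 12 libraries (points, numbered by replicate) by group; right, the implied length in bases, the Banp count divided by its FPKM and by the library total. Black marks are the group mean with its SD (n = 3): the levels step from 11.6 to 49.0 CPM, while the implied length lies between 2420 and 2923 bases in all groups.

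The spread within groups was uneven. In AOS10 the CPM values differed by a coefficient of variation of 0.749%, below the 5.32% that counting error alone gives at such counts. In B+A10 it was 23.8% against 3.54% from counting error, and B+A10 replicate 1 was 1.62 times as high as replicate 2. The coefficients in AOS0 (13.8%, counting error 7.62%) and B+A0 (12.6%, counting error 3.90%) lay between these.

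Fitted with edgeR over all 12 libraries, Banp was higher in B+A0 than in AOS0 by 1.79 on the log2 scale (SE 0.17), a ratio of mean CPM of 3.46. Between B+A10 and AOS10 the log2 difference was 1.11 (SE 0.16, ratio 2.16). AOS10 was above AOS0 by 0.97 (SE 0.17, ratio 1.96), and B+A10 above B+A0 by 0.29 (SE 0.16, ratio 1.22). B+A10 was above AOS0 by 2.08 (SE 0.17, ratio 4.22). These contrasts share groups, so they are not independent of each other.

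Relative to its size, the difference between B+A10 and B+A0 moved most with single libraries left out. It was 0.10 without B+A10 replicate 1 and 0.45 without B+A10 replicate 2. The log2 differences of each agent alone summed to 2.75, against the 2.08 measured with both. The busulfan difference at AOS 10 minus that at AOS 0 was -0.68 (SE 0.23), which is the same shortfall on the log2 scale, and it ranged from -0.87 to -0.51 when single libraries were left out.

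Set beside the other genes, the Banp differences were at the upper end in all but 1 of the 4 contrasts ranked here. By signed log2 fold change among 12329 tested genes, Banp ranked 11 in B+A0 against AOS0, 67 in AOS10 against AOS0 and 57 in B+A10 against AOS10. It ranked 1450 in B+A10 against B+A0. The ranks among the 9984 genes averaging 5 CPM or more were 5, 29, 18 and 696 in the same order.

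**Figure D2:**
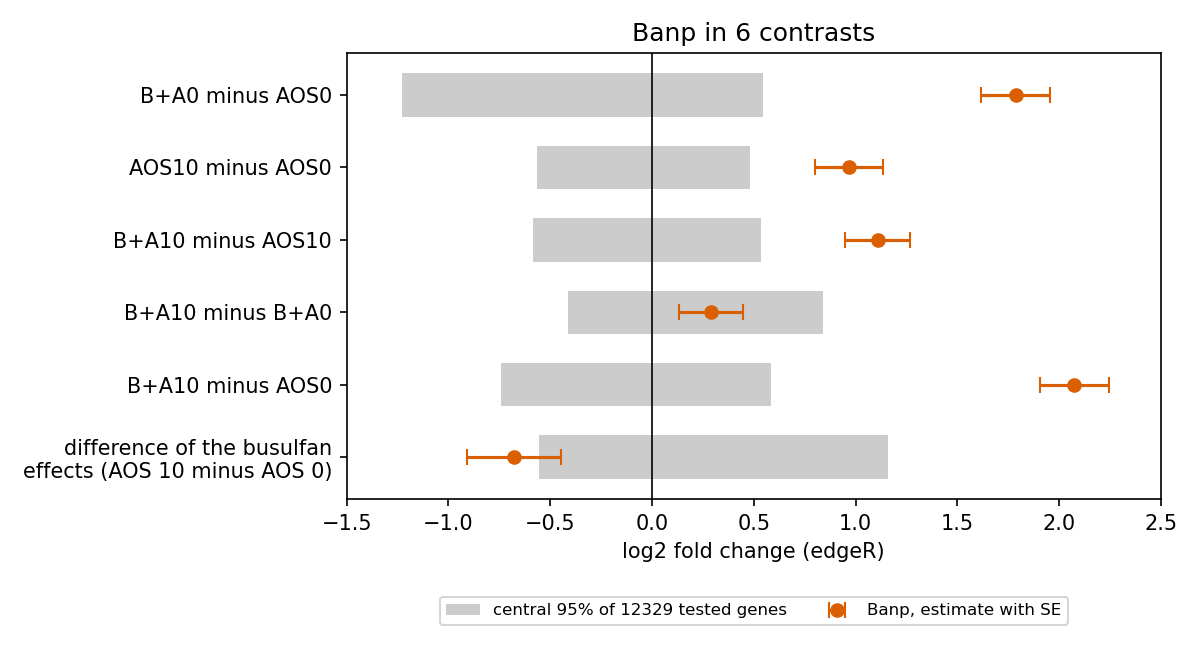
Banp log2 fold change with its SE (points and bars) in 5 group contrasts and in the difference of the busulfan effects, against the central 95% of 12329 tested genes (grey). Banp lies above the grey range except in B+A10 minus B+A0 (0.29), and below it in the difference of the busulfan effects (-0.68).

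For scale, edgeR's quasi-likelihood test with Benjamini-Hochberg adjustment at 0.05 called 1.70% of all tested genes higher and 1.94% lower in B+A0 than in AOS0. In B+A10 against AOS10 it called 0.146% higher and 0.0162% lower. It called 0% in AOS10 against AOS0, where 768 genes had an unadjusted p under 0.05 and DESeq2 called 64. It likewise called 0% in B+A10 against B+A0, where 1210 genes had an unadjusted p under 0.05 and DESeq2 called 74. These counts moved with single libraries: leaving out B+A0 replicate 3 took the 449 genes called in B+A0 against AOS0 to 21, and leaving out replicate 1 of that group took them to 1099.

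The stepwise order of Banp was uncommon. Only 49 of 12329 genes, Banp included (0.397%), had all AOS10 libraries above all AOS0 libraries and all busulfan libraries above all AOS10 libraries. The opposite order was found for 21 genes. The order was defined from the Banp values, so its count is a description. Of the genes named below for their likeness to Banp, Hsph1, Hspa8, Herpud1, Syvn1, Spsb1, Trmt44 and Eaf1 were among the 49, and Rsrp1, Ift46, Srsf5 and Mat2b were among the 21.

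The genes most like Banp were ranked by Pearson's r of log2 CPM over the 12 libraries. Among 11262 candidates the median r was 0.00036 and the central 95% ran from -0.758 to 0.813. In all, 51 genes had r above 0.9 and 10 had r below -0.9. The values of a pair of genes share library, depth and group, so each r is given with the correlation of deviations from the group means (within-group r) and with no p.

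The 10 genes of highest r included Hsph1, Hspa8 and Hspa1b, which encode heat shock chaperones. Hsph1, an HSP110 that exchanges nucleotide on HSP70, had r 0.96, Spearman's rho 0.99 and within-group r 0.85. Its CPM were 91.1, 123.5 and 81.7 in AOS0, 145.1, 148.1 and 136.5 in AOS10, 268.3, 433.4 and 488.5 in B+A0, and 678.8, 341.9 and 660.3 in B+A10. As for Banp, B+A0 replicate 1 and B+A10 replicate 2 were the lowest busulfan libraries of their groups, and no library without busulfan reached them.

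Hspa8, the constitutive HSP70 of the cytosol, had r 0.95, rho 0.99 and within-group r 0.86. Its mean was 2138 ± 134 CPM in AOS0, 2461 ± 78.8 in AOS10, 4190 ± 531 in B+A0 and 4329 ± 614 in B+A10 (SD, n = 3). Hspa1b, a stress-induced HSP70, had r 0.94 and within-group r 0.75, with means of 160 ± 39.8, 276 ± 89.9, 588 ± 231 and 979 ± 423 CPM in the same order. Reads of Hspa1b could be split with its near-identical copy Hspa1a.

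Herpud1 and Syvn1, also among the 10, act in the degradation of misfolded proteins at the endoplasmic reticulum. Herpud1 had r 0.95, within-group r 0.54 and means of 76.1, 98.3, 153 and 174 CPM from AOS0 to B+A10. Syvn1, the ubiquitin ligase HRD1, had r 0.94 but a within-group r of 0.20, so its likeness lay between groups.

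The remaining 5 were Trmt44 (r 0.96), Zbtb40 (0.96), Spsb1 (0.95), Mtrr (0.95) and Eaf1 (0.94), with within-group r from 0.58 to 0.79. Trmt44 is a tRNA methyltransferase and Mtrr regenerates methionine synthase. Both spanned a narrow range: Trmt44 from 12.6 ± 0.086 CPM in AOS0 to 18.9 ± 1.70 in B+A0, and Mtrr from 11.4 ± 1.02 to 17.0 ± 2.06. Spsb1, a SOCS box adaptor of a ubiquitin ligase, ran from 30.4 ± 4.59 CPM in AOS0 to 74.4 ± 21.1 in B+A0 and 84.7 ± 20.7 in B+A10.

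In the opposite direction, Rsrp1, an arginine- and serine-rich protein, had r -0.98 and within-group r -0.77. Its CPM were 151.5, 167.8 and 176.3 in AOS0, 137.8, 135.2 and 129.9 in AOS10, 122.9, 111.3 and 110.2 in B+A0, and 107.6, 117.3 and 112.6 in B+A10. Its libraries mirrored those of Banp, with AOS0 replicate 3 at the top where Banp was lowest and B+A10 replicate 1 at the bottom where Banp was highest. Srsf5, a serine- and arginine-rich splicing factor, had r -0.95 and within-group r -0.88, with means of 138 ± 5.42 CPM in AOS0 and 85 ± 10.7 in B+A0. Ift46 (r -0.95, within-group r -0.41), Mat2b (r -0.95, within-group r -0.53) and Usp28 (r -0.95, within-group r -0.68) completed the 5 lowest. Without the 2 libraries farthest from the Banp median, AOS0 replicates 2 and 3, all 15 genes kept their sign, with r from 0.92 to 0.98 for the 10 and from -0.97 to -0.91 for the 5.

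**Figure D3:**
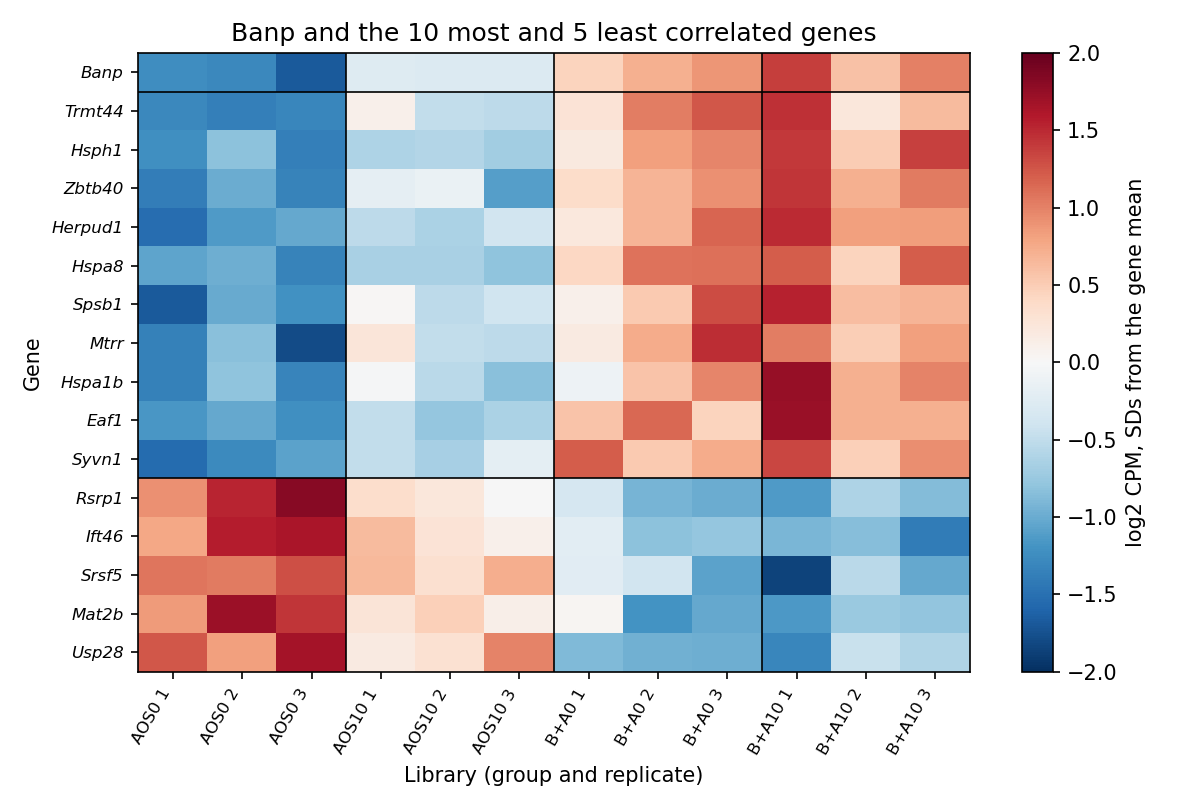
Log2 CPM of Banp (top row), the 10 genes with the highest r and the 5 with the lowest, in the 12 libraries, each gene centred on its mean and in units of its SD. Banp and the 10 genes pass from low in AOS0 to high in the busulfan groups, with B+A10 replicate 1 among the highest libraries; the 5 lower rows run the other way.

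The deposited columns also carry a readout other than the level. The count of a gene divided by its FPKM and by the library total gives the transcript length that the authors' tool assigned to it, here called the implied length. For most genes this hardly moved: over 9091 genes with at least 100 counts and 1 FPKM in each library, the median coefficient of variation over libraries was 0.342%. For Banp it was 5.91%, and 1.15% of those genes had a larger one.

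The implied length of Banp ran from 2420 to 2923 bases. It was 2617 ± 110 bases in the 6 busulfan libraries and 2680 ± 198 in the 6 without (SD). The difference of -63.3 bases was within that spread (exact two-sided permutation test over 924 assignments, p = 0.5, smallest possible 0.00216). Within AOS 0 the difference was -104 bases (exact permutation p = 0.5) and within AOS 10 it was -22.8 bases (exact permutation p = 1.0), where the smallest p that 3 against 3 libraries allow is 0.1. The mix of transcript lengths assigned to Banp varied between libraries, and a shift with busulfan was not detectable over this spread.

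Genes whose promoter window holds the BANP element were then compared between groups. In B+A0 against AOS0, 1 of the 114 (0.877%) was called higher and 0 lower by edgeR (adjusted p under 0.05). Of the 9897 tested genes with a window, 1.73% were called higher and 1.79% lower. The median log2 fold change of the 114 was -0.015, against -0.0014 over the 9897, and 53 of the 114 (46.5%) lay above 0, against 49.8%. An unadjusted p under 0.05 was found for 15 of the 114 (13.2%), against 22.2% of all with a window.

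In the other contrasts 0 of the 114 were called by edgeR or DESeq2. In AOS10 against AOS0 their median was -0.053, with 39 of 114 above 0 (34.2%, against 48.1% of all genes with a window), and 5 of them (4.39%) had an unadjusted p under 0.05, against 6.20% of all genes with a window. In B+A10 against AOS10 the median was 0.039, with 69 of 114 above 0 (60.5% against 51.2%), and 7 (6.14%) had an unadjusted p under 0.05 against 9.99%. In B+A10 against B+A0 the median was -0.014, with 48 of 114 above 0 (42.1% against 51.0%), and 2 (1.75%) had an unadjusted p under 0.05 against 9.69%.

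The gene called was Nol9, a polynucleotide kinase of ribosomal RNA processing, whose 1 copy of the element falls in both of its RefSeq windows, 6 bases before the start of one and 23 before that of the other. Its CPM were 53.2, 55.7 and 47.9 in AOS0 and 66.9, 67.4 and 73.7 in B+A0, without overlap. It rose by a log2 fold change of 0.41 (SE 0.098, edgeR adjusted p = 0.0406). In AOS10 it stood at 62.3, 61.3 and 50.8 CPM and in B+A10 at 65.6, 60.1 and 56.2, where the groups overlapped (log2 fold change 0.061, edgeR adjusted p = 0.884). The call was lost without any 1 of 5 of the 6 compared libraries, with adjusted p of 0.0635 to 0.172. Without B+A0 replicate 1, 5 genes with the element were called.

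Ncapg stood at 22.4 ± 4.84 CPM in AOS0 and 21.6 ± 1.40 in B+A0 (log2 fold change -0.057, edgeR adjusted p = 0.906). Across the 12 libraries, the median r with Banp was -0.053 for the 114 genes and -0.0082 for all with a window. Those with an upstream copy that correlated most closely with Banp were Dido1 (r 0.83, within-group r 0.60) and Supt5, an elongation factor of RNA polymerase II (r 0.83). The within-group r of Supt5 was -0.17, so its likeness lay between groups. Prdx1, a peroxiredoxin, ran the other way (r -0.84, within-group r -0.47). Their log2 fold changes in B+A0 against AOS0 were 0.14, 0.21 and -0.24, and none passed the test. The genes with the element had a median level of 13.5 FPKM, against 10.8 for all with a window.

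**Figure D4:**
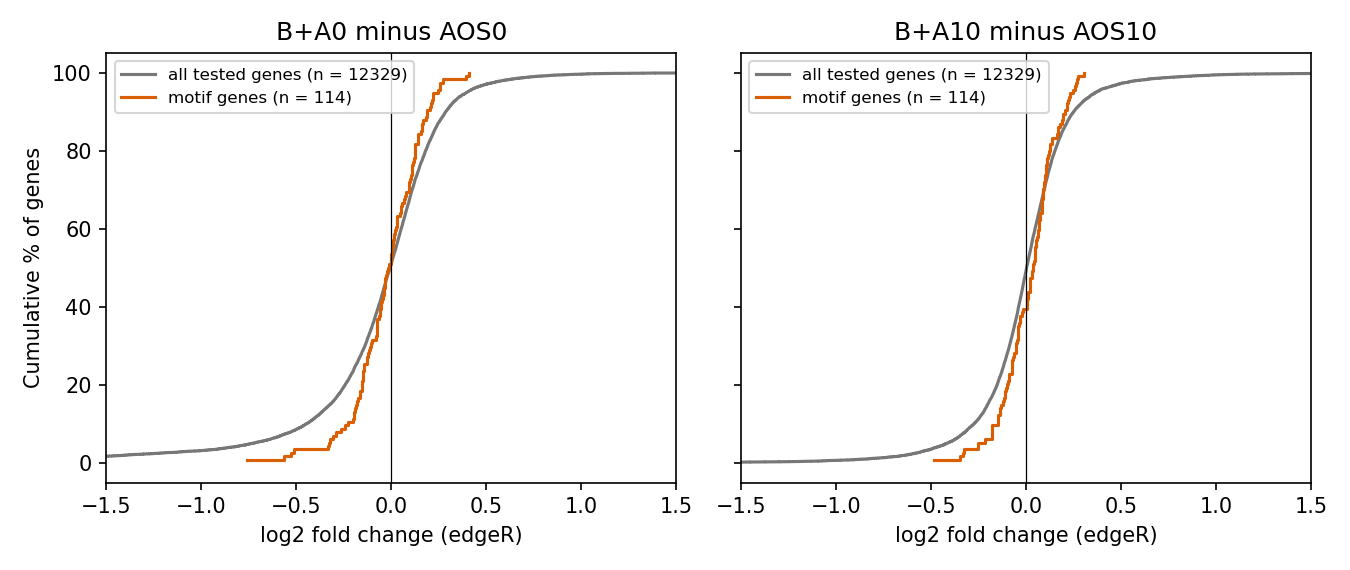
Cumulative percent of genes by log2 fold change in B+A0 minus AOS0 (left) and B+A10 minus AOS10 (right), for the 114 tested genes with the BANP element in their promoter window (orange) and all 12329 tested genes (grey). The orange curves cross 50% near 0 (medians -0.015 and 0.039) and span a narrower range than the grey ones.

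Other proteins of the BEN family and the reported partners of BANP did not pass the test in any of the 4 contrasts. Of 8 BEN family genes besides Banp, 7 were in the table and 4 were tested. In B+A0 against AOS0, 3 of these 4 had an unadjusted p under 0.05, as did 2722 of all 12329 tested genes. Bend3, a heterochromatin repressor, went from 16.0 ± 1.42 to 20.3 ± 2.55 CPM (log2 fold change 0.34, edgeR adjusted p = 0.169). Nacc1 had a log2 fold change of 0.27 (edgeR adjusted p = 0.101) and Bend7 one of -0.31 (edgeR adjusted p = 0.121). The median of the 4 was 0.081.

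The 6 partners, among them Trp53, Hdac1, Sin3a and Cux1, had a median log2 fold change of -0.0062 in B+A0 against AOS0. An unadjusted p under 0.05 was found for 0 of them, against 2722 of all 12329 tested genes. Trp53, which encodes p53, stood at 116 ± 8.38 CPM in AOS0 and 130 ± 13.0 in B+A0 (log2 fold change 0.17, edgeR adjusted p = 0.407). Hdac1, a histone deacetylase, stood at 96.7 ± 3.52 and 100.3 ± 2.43 CPM. All 6 partners had log2 fold changes between -0.13 and 0.28 in this contrast.

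Of 10 genes reported to answer to BANP, 9 were tested. In B+A0 against AOS0, 1 was called higher and 0 lower, against 1.70% and 1.94% of all tested genes. An unadjusted p under 0.05 was found for 3 of the 9, and for 2722 of all 12329 tested genes. Ccnd1, which encodes cyclin D1 and is reported to be repressed by BANP, rose from 249 ± 30.7 CPM in AOS0 to 334 ± 20.0 in B+A0 (log2 fold change 0.43, SE 0.095, edgeR adjusted p = 0.0327). Bbc3, the p53 target PUMA that promotes cell death, went from 3.38 ± 0.207 to 1.77 ± 0.225 CPM (log2 fold change -0.93, edgeR adjusted p = 0.0828). Bax, Cdkn1a, Nfkbia and Cenpt lay between -0.25 and 0.17. In the other 3 contrasts 0 of the 9 were called by edgeR, and 0, 0 and 2 had an unadjusted p under 0.05 in AOS10 against AOS0, B+A10 against AOS10 and B+A10 against B+A0. In the same order, 768, 1261 and 1210 of all 12329 tested genes had one.

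Of 18 p53 target genes, 16 were tested. In B+A0 against AOS0, 1 was called lower and 0 higher, against 1.94% and 1.70% of all tested genes. An unadjusted p under 0.05 was found for 4 of the 16, and for 2722 of all 12329 tested genes. Pmaip1, which encodes the death-promoting NOXA, fell from 28.7 ± 1.62 CPM in AOS0 to 19.0 ± 4.94 in B+A0 (log2 fold change -0.59, SE 0.15, edgeR adjusted p = 0.0461). The median of the 16 was -0.13, with 12 below 0, as were 51.2% of all tested genes. Neither the 11 tested genes of other matrix attachment region binding proteins (median 0.043) nor the 12 of CpG island promoter factors (median -0.0011) held a call in this contrast, and 2 of each had an unadjusted p under 0.05. None of these 3 lists held a call by edgeR in the other contrasts. Of the 16 p53 target genes, 9, 5 and 3 lay below 0 in AOS10 against AOS0, B+A10 against AOS10 and B+A10 against B+A0. Over all tested genes, 52.2%, 49.1% and 48.2% did. An unadjusted p under 0.05 was found for 1, 2 and 5 of the 16, against 768, 1261 and 1210 of all 12329 tested genes. The calls of Ccnd1 and Pmaip1 were both lost without AOS0 replicate 2 or 3 or B+A0 replicate 2 or 3, and that of Pmaip1 also without AOS0 replicate 1 (edgeR adjusted p 0.0623 to 0.174).

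RefSeq places 39 genes within 500 kb of Banp, of which 19 were in the table and 14 were tested. In B+A0 against AOS0, 2 were called higher and 0 lower, with a median log2 fold change of 0.086 and 11 of 14 above 0. Over all tested genes, 1.70% were called higher and 1.94% lower, the median log2 fold change was -0.0072 and 51.2% lay below 0. Slc7a5, the large neutral amino acid transporter LAT1, ends 40.3 kb before Banp and rose from 16.7 ± 0.630 CPM in AOS0 to 29.9 ± 6.98 in B+A0 (log2 fold change 0.84, SE 0.20, edgeR adjusted p = 0.0387). Zfpm1, the GATA cofactor FOG1, lies 252.6 kb after Banp and rose from 95.8 ± 11.2 CPM in AOS0 to 152 ± 19.4 in B+A0 (log2 fold change 0.67, SE 0.15, edgeR adjusted p = 0.0320). Both differences were smaller than the 1.79 of Banp.

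Zfpm1 also tracked Banp across libraries (r 0.92, within-group r 0.65), as did Slc7a5 (r 0.81, within-group r 0.68). Zc3h18, an RNA-binding protein 347 kb after Banp, had r 0.91 and within-group r 0.62, with a small difference (log2 fold change 0.25, edgeR adjusted p = 0.0745). Car5a, the nearest gene at 3.06 kb before Banp, reached at most 8.99 counts in a library and was not tested. Zfp469, at 13.9 kb after it, was tested at a mean of 1.01 ± 0.516 CPM in AOS0 and 0.469 ± 0.409 in B+A0. The other 10 tested neighbours, Fbxo31, Map1lc3b, Zcchc14, Klhdc4, Cyba, Mvd, Snai3, Rnf166, Ctu2 and Piezo1, had log2 fold changes from -0.077 to 0.52.

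In B+A10 against AOS10, 0 of the 14 neighbours were called by edgeR. Slc7a5 had a log2 fold change of 0.68 (edgeR adjusted p = 0.243) and Zfpm1 one of 0.45 (edgeR adjusted p = 0.300). In AOS10 against AOS0 and in B+A10 against B+A0 the count was also 0, with medians of 0.095 and -0.072. The call of Slc7a5 was lost without any 1 of the 6 AOS0 and B+A0 libraries but B+A0 replicate 1, and that of Zfpm1 without AOS0 replicate 1 or 3 or B+A0 replicate 2 or 3 (edgeR adjusted p 0.0623 to 0.172).

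**Figure D5:**
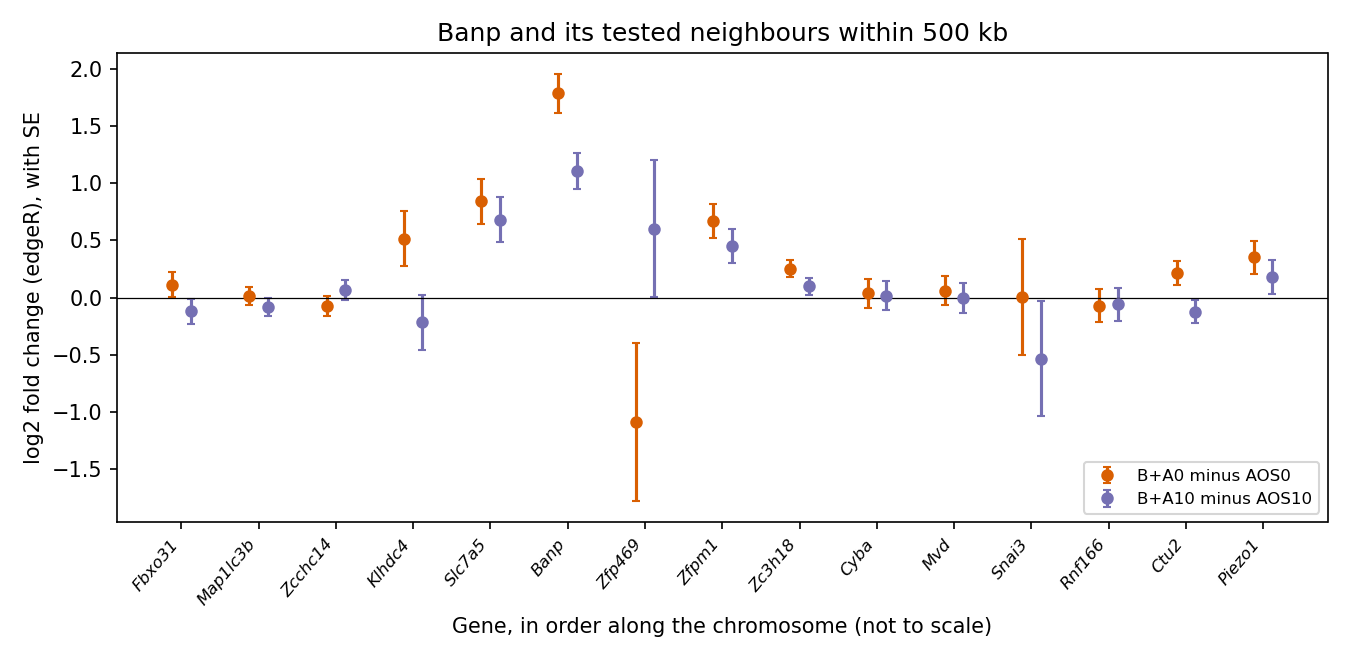
Log2 fold change with its SE of Banp and the 14 tested genes within 500 kb, in chromosome order, for B+A0 minus AOS0 (orange) and B+A10 minus AOS10 (purple). Banp is the highest in both (1.79 and 1.11), followed by Slc7a5 and Zfpm1 in B+A0 minus AOS0; Zfp469 has the widest SE.

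Summed markers of several cell types were lower in B+A0, where Banp was higher than in AOS0, and in bulk tissue fewer cells of a type and less RNA per cell cannot be told apart. The summed FPKM of 16 T and NK cell markers was 187 to 337 in AOS0, 174 to 228 in AOS10, 43.3 to 110 in B+A0 and 109 to 300 in B+A10. Of the 15 tested, 10 were called lower in B+A0 than in AOS0, against 1.94% of all tested genes. The sum in B+A10 overlapped that in AOS10. Over the 12 libraries the log2 sum had an r of -0.66 with the log2 CPM of Banp, and an r of -0.81 after subtracting group means. These values were not the largest: the endothelial sum had -0.87 and -0.82. The mast cell sum had -0.86 and -0.67, larger in size over the 12 libraries but smaller after subtracting group means. The Paneth cell sum (0.55 and 0.48) and the smooth muscle sum (0.23 and 0.29) were positive in both. The sum of crypt stem and dividing cell markers had -0.12 and 0.72. The sum of 7 mast cell markers was 55.7 to 146 in AOS0, 55.9 to 88.9 in AOS10, 13.0 to 18.2 in B+A0 and 15 to 40.7 in B+A10, and all 5 tested were called lower in B+A0 than in AOS0.

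The sum of 5 endothelial markers was low throughout, at 2.68 to 3.94 FPKM in AOS0, 2.59 to 2.91 in AOS10, 2.05 to 2.41 in B+A0 and 2.01 to 2.65 in B+A10. Sums were also lower without overlap in B+A0 than in AOS0 for 7 goblet cell markers (10134.13 to 13502.48 against 14184.34 to 16891.42 FPKM) and 6 fibroblast markers (0.54 to 1.63 against 1.99 to 2.77). The same held for 4 erythroid markers (5.34 to 14.27 against 15.98 to 63.57) and 5 tuft cell markers (2.11 to 2.46 against 3.30 to 4.24). Of the tested genes in these lists (7 goblet cell, 4 fibroblast, 1 erythroid and 3 tuft cell), 0 were called by edgeR in this contrast. The 7 Paneth cell markers summed to 6010.27 to 9763.27 FPKM in AOS0 and 10259.16 to 13543.25 in B+A0, without overlap. Of the 7, 0 passed edgeR's test and 4 had an unadjusted p under 0.05, as did 2722 of all 12329 tested genes. In none of the marker lists was a gene of the table at 0 in every library. The part of these cell types in the Banp level was not tested.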

How the data were processed

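The authors deposited 1 table of 16942 genes for 12 libraries of mouse small intestine. It holds expected counts, called read counts per the file headers and left unnormalized by the authors; between 8.90% and 9.33% of a library's values had decimals (beyond a tolerance of 1e-06) and were rounded. A second set of deposited columns was read as FPKM, since its header gives no unit but its ratio to the counts tracked library totals within 0.156% in 5071 genes of more than 500 counts. The 8 columns of group averages were not used. Per the submitters' processing notes the build was mm10; which aligner, counter, annotation and strand option were used is not given in the sources here.

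Counts were fitted with edgeR 4.0.16 in R 4.3.3: filterByExpr kept 12329 genes, TMM factors were 0.969 to 1.05, and 1 quasi-likelihood model of group means covered all 12 libraries, with Benjamini-Hochberg adjustment at 0.05. The fit was checked on simulated data. Each SE was the size of the log2 fold change fitted without edgeR's prior count, divided by the square root of F. The log2 fold changes printed include that prior count. Log2 CPM used a prior count of 2. Alternatives were DESeq2 1.42.0, its size factors, no low-count filter, the compared groups only, a replicate block, each library left out in turn, and log2(FPKM + 1) or log2(FPKM + 0.1). Permutation tests were run in Python 3.11.15 with scipy 1.17.1.

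The named genes are Banp, the 10 genes of highest and 5 of lowest r at a mean of at least 1 CPM (unnamed models and receptor segments left out), called genes with the element, called list members with up to 3 examples, and all tested neighbours. Banp, the lists and the rules were chosen with earlier results of these data known. Since no label ties samples to separate animals, p-values reflect the spread between these samples, which may be technical. Promoters are from RefSeq (GRCm38.p6), where 13328 genes of the table had a window; transcripts are from GENCODE.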

Additional observations from a re-analysis of the deposited data

How the results depend on the processing

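Of 83 alternative values of the Banp log2 fold changes, 82 moved by less than the pooled within-group SD (0.221) and 0 changed sign. The exception was B+A10 against AOS0 on log2(FPKM + 1), at 1.85. With single libraries left out, the Banp differences ran from 1.68 to 1.88 (B+A0 against AOS0), 0.86 to 1.04 (AOS10 against AOS0), 0.92 to 1.28 (B+A10 against AOS10), 0.10 to 0.45 (B+A10 against B+A0) and 1.89 to 2.24 (B+A10 against AOS0). The difference in implied length ran from -115 to -14.8 bases. On log2(FPKM + 1), chosen after seeing the data, the 15 named correlations had sizes of 0.919 to 0.968.

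Counts of calls depended on the setting. Genes with the element called in B+A0 against AOS0 numbered 5 by DESeq2, 0 with the compared groups only and 2 with the 8-letter core alone, and 0 to 5 with single libraries left out (5 without B+A0 replicate 1, and 0 without any other). List members called, over the 4 contrasts, numbered 5 by DESeq2, 0 with the compared groups only and 0 to 7 with single libraries left out (7 without B+A0 replicate 1, 1 without AOS0 replicate 1, and 0 without any other library of AOS0 or B+A0). Neighbours called numbered 0 to 2 with single libraries left out (1 without AOS0 replicate 2, and 0 without AOS0 replicate 1 or 3 or B+A0 replicate 2 or 3). Over all genes, B+A0 against AOS0 gave 449 calls in the fit reported, 995 by DESeq2 and 241 with the compared groups only; it gave 42, 213 and 53 without AOS0 replicate 1, 2 and 3, and 1099, 112 and 21 without B+A0 replicate 1, 2 and 3. B+A10 against AOS10 gave 20, and 139, 0 and 40 by DESeq2, with the compared groups only and without the low-count filter; it gave 0 without AOS10 replicate 1 or 2 or B+A10 replicate 1, 1 without AOS10 replicate 3, then 61 and 30 when B+A10 replicates 2 and 3 were left out. AOS10 against AOS0 gave 62 calls with the compared groups only, 8 without the filter and 13 without AOS10 replicate 3. B+A10 against B+A0 gave 5 without the filter, 45 without B+A0 replicate 1, and 51 when B+A10 replicate 3 was left out.

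Same-numbered samples did not deviate together (correlations -0.162 to 0.173, 1 of 18 over 0.1, and 5 of 18 highest with their own number). With 3 libraries a group, this cannot settle whether the numbers pair the samples. With the replicate block, 0 genes with the element, 0 list members and 0 neighbours were called. The replicate block gave 193 calls over all genes in B+A0 against AOS0, 15 in AOS10 against AOS0, 3 in B+A10 against AOS10 and 4 in B+A10 against B+A0. The causes were not tested. With 3 libraries a group, differences under the spread between replicates were not detectable.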
